A study of Rattus norvegicus with 24 samples.

Results

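In lung and liver of newborn rats, 84 of 30560 annotated genes were lower in lung and higher in liver after dexamethasone than after vehicle. These genes were chosen on the measured values. A gene entered when its mean level in counts per 1000000 gene counts (CPM) with dexamethasone, after adding 0.5 CPM to both means, was at most 1/1.5 of the vehicle level in lung and at least 1.5 times the vehicle level in liver, with a mean of 5 CPM or more in the higher group of each tissue. Of the 30560 genes, 9577 met that minimum mean in both tissues. Dexamethasone against vehicle is therefore described here without a test. The comparisons tested were not part of the rule, but those with vehicle share the vehicle libraries that the rule used.

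Dexamethasone and desisobutyryl ciclesonide are both glucocorticoids. Such steroids enter the cell and bind the glucocorticoid receptor, which moves to the nucleus and raises transcription of some genes and lowers that of others, depending on the chromatin and the partner factors of each cell type. In the lung around birth, glucocorticoids are known for thinning the tissue between airspaces and promoting surfactant production, and in the liver for inducing enzymes of glucose production and amino acid breakdown. Desisobutyryl ciclesonide is the active metabolite of ciclesonide, a prodrug used as an inhaled corticosteroid.

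Poly(A) RNA was sequenced from whole lung and whole liver of wild-type Sprague Dawley pups at postnatal day 6. Pups had been injected under the skin on 5 successive days, the first being postnatal day 1, and organs were collected 24 h after the last injection. The 3 treatments were dexamethasone at 0.1 mg/kg, desisobutyryl ciclesonide at 1.25 mg/kg and vehicle, which was 2.5% ethanol, each with 4 lung and 4 liver libraries, giving 6 groups and 24 libraries. The doses of the 2 steroids differ, so their values stand side by side and no difference between them is tested. The labels name no litter or sex, and p-values measure the spread between these libraries. Each library came from a whole organ, in which fewer cells of a type and less RNA per cell cannot be told apart.

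The lung libraries held 15839958 to 27881158 counts assigned to genes and the liver libraries 15397992 to 26194384. The lung libraries spread within their groups on the second principal component of lung, which held 14.7% of the variance. The dexamethasone lungs split there, with scores of 43.8 and 34.3 for replicates 1 and 2 and of -27.3 and -39.3 for replicates 3 and 4. Desisobutyryl ciclesonide replicate 4 scored -29.8 and vehicle replicate 3 scored -24.0, while the other 3 libraries of each of these groups lay between -0.33 and 13.6. The 4 lung libraries with scores of -24.0 or lower are left out together in some counts below, which are named there as the counts without the 4 low-scoring lung libraries. The 8 desisobutyryl ciclesonide libraries carry a separate series of library numbers, and 0.801% to 1.40% of their counted reads were unaligned, against 1.88% to 3.50% in the other 16 libraries, so drug and library series cannot be told apart in comparisons of desisobutyryl ciclesonide with vehicle.

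The files identify genes by Ensembl number only. None of the 30560 identifiers matched the RefSeq table of 47357 rat genes used here, so genes are given by identifier, with no name, function or sequence, and the markers of lung and liver cell types could not be looked up.

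The opposite response of the 2 tissues was uncommon among the 9577 genes. Dexamethasone folds of 1/1.5 or less in lung were found for 2137 genes (22.3% of the 9577), and folds of 1.5 or more in liver for 1179 (12.3%). The 84 genes that met both conditions were 0.877% of the 9577, and made up 3.93% of the genes lower in lung and 7.12% of those higher in liver. Far more genes were lower in both tissues, 1250, or higher in both, 542. The reverse pattern, higher in lung and lower in liver, was found for 165 genes.

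**Figure D1:**
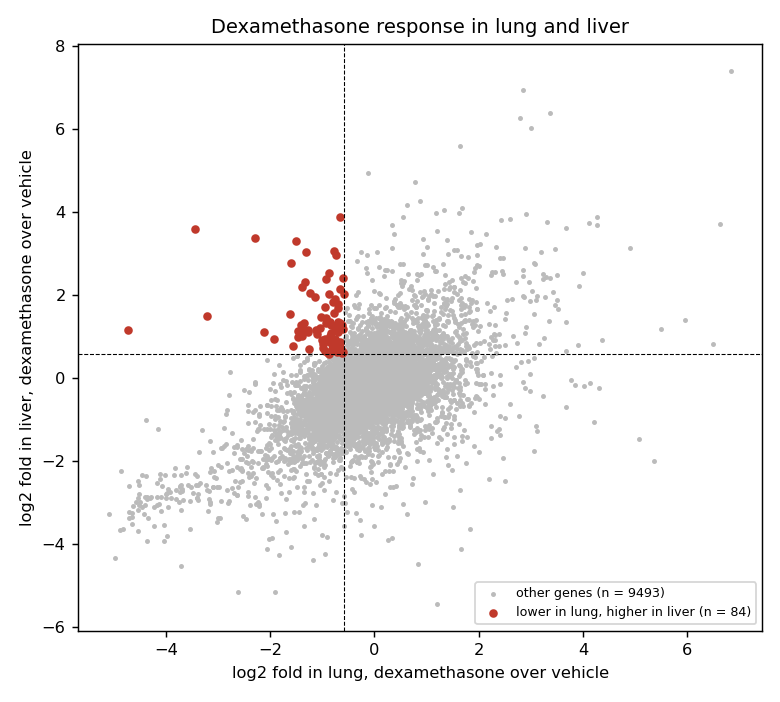
Log2 fold of dexamethasone over vehicle in lung (horizontal) and in liver (vertical) for the 9577 genes with a sufficient level in both tissues, with dashed lines at the fold thresholds. The 84 genes fill the upper left corner, which the thresholds define, and many of them lie close to a threshold.

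Most of the 84 genes had a fold under 2 in lung, and most had a fold of at least 2 in liver. In lung, the log2 fold of dexamethasone over vehicle ran from -4.72 to -0.59 with a median of -0.86, against a median of -0.12 over the 9577 genes. In liver it ran from 0.59 to 3.87 with a median of 1.17, against -0.19 over the 9577 genes. The fold was at least 2 in lung for 29 genes, in liver for 53 and in both for 24, and 50 of the 84 genes had the larger log2 fold in liver. A fold of at least 8 was reached by 3 genes in lung and 6 in liver. On library sizes scaled by trimmed means (TMM), the median over the genes with the required level was -0.02 in lung and 0.04 in liver. The 84 genes kept their directions there, with medians of -0.77 in lung and 1.41 in liver.

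Many of the genes sit near the edge of the rule. Of the 84, 32 lay within 10% of a fold threshold. The lung fold closest to its threshold was 0.664 inside and 0.673 outside, and the liver fold 1.51 inside and 1.499 outside. The lowest higher-group mean inside was 5.05 CPM in lung and 5.20 CPM in liver, and the nearest gene outside had 4.84 CPM in lung and 4.69 CPM in liver. Leaving out each dexamethasone or vehicle library in turn gave 71 to 92 genes, and 46 of the 84 were chosen in all 16 of these settings. Without lung dexamethasone replicates 3 and 4 the rule chose 127 genes, 80 of them among the 84. Without the 4 low-scoring lung libraries it chose 110 genes, 76 of them among the 84.

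The groups separated library by library for most of the genes. All 4 lung dexamethasone libraries were below all 4 lung vehicle libraries for 65 of the 84 genes, where 34.8% of the 9577 genes showed this. All 4 liver dexamethasone libraries were above all 4 liver vehicle libraries for 69 genes, where 13.8% of the 9577 did. Both separations held for 56 genes, where 1.73% of the 9577 showed both, and neither held for 6. These counts follow from the choice of genes and support nothing further.

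Within each lung dexamethasone library, the median log2 ratio of the 84 genes to their vehicle mean was -1.02, -1.27, -0.74 and -0.73. The 4 lung desisobutyryl ciclesonide libraries had medians of -0.24, -0.34, -0.33 and -0.24, and the 4 lung vehicle libraries -0.02, -0.05, 0.10 and -0.08. Dexamethasone replicates 3 and 4, which split from replicates 1 and 2 on the second component, were the less reduced pair of dexamethasone lungs. The 3 groups did not overlap, but the rule used the same vehicle mean, so their separation follows in part from the choice of genes. On library totals, the median log2 change with desisobutyryl ciclesonide over all genes with the level that the rule required was -0.11 in lung.

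In liver, the dexamethasone libraries had medians of 1.10, 1.26, 1.07 and 1.26. The desisobutyryl ciclesonide libraries had medians of 0.03, 0.19, 0.06 and 0.37, and the vehicle libraries -0.07, 0.00, 0.00 and 0.05. The dexamethasone livers stood clear of both other groups, and the desisobutyryl ciclesonide livers overlapped the vehicle livers. These ratios too rest on the vehicle mean that the rule used. The median log2 change with desisobutyryl ciclesonide over all genes with the level that the rule required was -0.04 in liver on library totals.

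**Figure D2:**
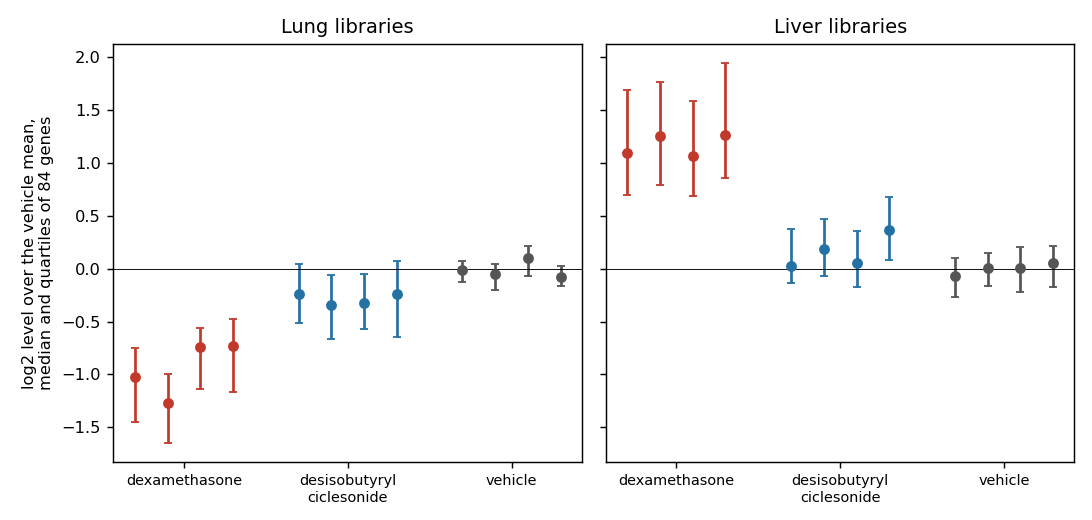
Median log2 level of the 84 genes over their vehicle mean in each library (points), with the quartiles over genes (bars), for lung (left panel) and liver (right panel), grouped as dexamethasone, desisobutyryl ciclesonide and vehicle. Dexamethasone lungs lie between -1.27 and -0.73 and dexamethasone livers between 1.07 and 1.26 while desisobutyryl ciclesonide lungs lie between -0.34 and -0.24 and desisobutyryl ciclesonide livers between 0.03 and 0.37.

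The 84 genes together took 0.539% ± 0.0631 of the gene counts in dexamethasone lungs, 0.847% ± 0.0222 in desisobutyryl ciclesonide lungs and 1.02% ± 0.0714 in vehicle lungs (SD, n = 4 each). In livers they took 2.51% ± 0.132 with dexamethasone, 1.39% ± 0.167 with desisobutyryl ciclesonide and 0.944% ± 0.0962 with vehicle. A few genes carried these sums: the 5 with the most counts held 51.6% to 53.4% of them in the lung groups and 69.7% to 70.8% in the liver groups. The typical gene of the set was expressed at a low to moderate level, with a median of 15.8 CPM in dexamethasone lungs, 24.1 CPM in desisobutyryl ciclesonide lungs and 28.2 CPM in vehicle lungs. In livers the median was 39.2 CPM with dexamethasone, 16.4 CPM with desisobutyryl ciclesonide and 15.1 CPM with vehicle. The rule required a lower mean in lung and a higher one in liver with dexamethasone. The directions of these sums and medians between dexamethasone and vehicle therefore follow from the choice of genes. None of the 84 genes had a count of 0 in any library.

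Of the 84 genes, ENSRNOG00000008986 had the largest sum of the sizes of its log2 folds in the 2 tissues. Its lung levels were 1.31, 1.85, 2.34 and 2.69 CPM with dexamethasone, 8.80, 7.11, 6.16 and 6.12 CPM with desisobutyryl ciclesonide, and 24.4, 25.1, 30.9 and 27.99 CPM with vehicle. Its liver levels were 99.8, 95.4, 45.6 and 84.4 CPM with dexamethasone, 8.35, 7.31, 10.2 and 10.1 CPM with desisobutyryl ciclesonide, and 5.62, 7.28, 7.63 and 4.77 CPM with vehicle. The 3 lung groups did not overlap, and in liver every dexamethasone library exceeded every library of the other groups, while the desisobutyryl ciclesonide and vehicle livers overlapped at one end. On dexamethasone against vehicle this was a 10.8-fold reduction in lung and an 11.98-fold increase in liver, and the gene passed from the lung-higher to the liver-higher side, at 2.05 ± 0.600 CPM in lung and 81.3 ± 24.7 CPM in liver with dexamethasone, against 27.1 ± 3.00 CPM in lung and 6.33 ± 1.36 CPM in liver with vehicle (SD, n = 4 each).

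The second gene by that order, ENSRNOG00000013598, had the lowest lung fold of the set. In lung it had 0.542, 0.371, 0.596 and 0.717 CPM with dexamethasone, 10.8, 9.61, 6.77 and 4.42 CPM with desisobutyryl ciclesonide, and 25.3, 27.4, 29.8 and 27.2 CPM with vehicle. In liver it had 4.94, 35.3, 4.84 and 12.1 CPM with dexamethasone, 7.77, 7.71, 5.55 and 5.80 CPM with desisobutyryl ciclesonide, and 4.84, 6.26, 8.63 and 4.95 CPM with vehicle. The lung groups were fully separate, at a 26.4-fold reduction with dexamethasone. The liver groups overlapped: the log2 fold of 1.15 in liver came down to 0.23 without dexamethasone replicate 2, which is below the threshold of the rule.

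The lung folds of ENSRNOG00000028616 and ENSRNOG00000018505 rested on vehicle replicate 3, one of the low-scoring lung libraries. ENSRNOG00000028616 had 0.361, 0.689, 1.36 and 1.97 CPM in dexamethasone lungs, 2.87, 8.92, 1.83 and 1.39 CPM in desisobutyryl ciclesonide lungs, and 0.991, 2.69, 51.7 and 1.78 CPM in vehicle lungs. Its log2 fold of dexamethasone over vehicle in lung was -3.21 with all libraries and -0.54 without vehicle replicate 3. ENSRNOG00000018505, singled out after its values were seen, had 1.49, 2.86, 13.7 and 16.5 CPM in dexamethasone lungs and 2.64, 3.52, 99.8 and 2.99 CPM in vehicle lungs. Its desisobutyryl ciclesonide lungs had 4.83, 1.90, 3.17 and 15.97 CPM. Within each treatment its highest lung levels were in the low-scoring libraries. Its log2 fold of -1.60 turned to 1.36 without vehicle replicate 3, so that gene was lower in lung with dexamethasone on the strength of 1 vehicle library. The value of 1.36 in turn rested on dexamethasone replicates 3 and 4.

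**Figure D3:**
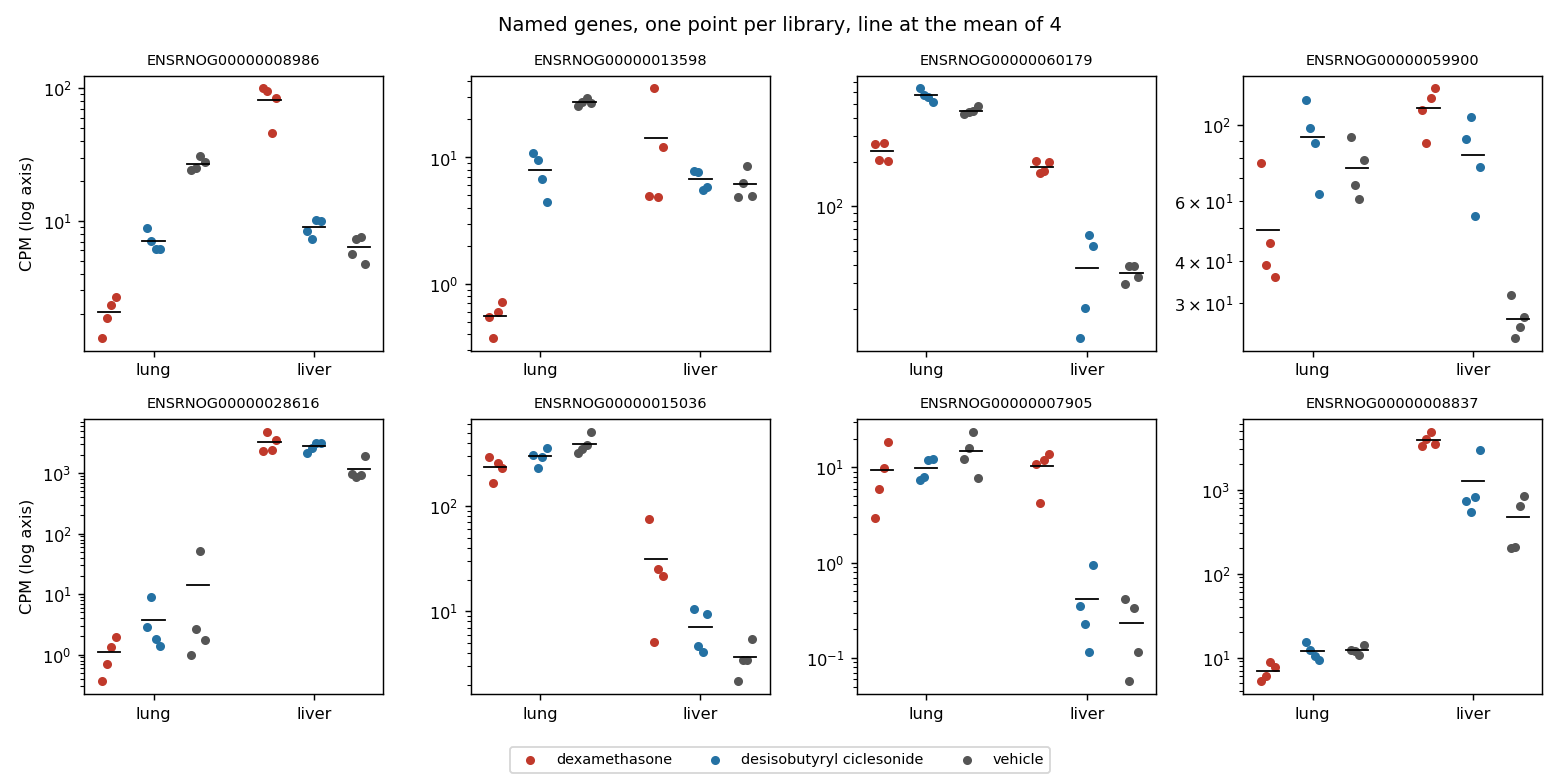
Level in CPM on a log axis of 8 named genes, 1 point per library and a line at the mean of 4, for lung (left in each panel) and liver (right), in the order dexamethasone, desisobutyryl ciclesonide and vehicle. ENSRNOG00000008986 runs in opposite directions in the 2 tissues, ENSRNOG00000013598 overlaps in liver, and the single high vehicle lung of ENSRNOG00000028616 stands at 51.7 CPM.

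Both lung-higher and liver-higher genes were among the 84 under every treatment. On CPM over library totals, 16 genes were higher in lung than in liver with dexamethasone, 54 with desisobutyryl ciclesonide and 59 with vehicle, and the median log2 difference, lung minus liver, was -1.44, 0.45 and 1.21 in the same groups. A set of 43 genes was higher in liver with dexamethasone and higher in lung with vehicle, 16 were higher in lung under both treatments, and 25 were higher in liver under both. By the rule, every gene moves toward liver from vehicle to dexamethasone. The shift of the counts and medians between these treatments therefore follows from the choice of genes and supports nothing further. The gap between the tissues was narrower with dexamethasone than with vehicle for 39 genes and wider for 45. Of the 17 genes with a liver fold of at least 4, 16 were higher in lung than in liver with vehicle. A high liver fold itself favours a low vehicle level in liver. On library totals with desisobutyryl ciclesonide, 82.0% of the tested genes with the level that the rule required had a higher estimate in lung. The share among the 84 was 64.3%. Such shares over all genes are not given for dexamethasone or vehicle. These directions depend on the scaling: between lung and liver, TMM moved the median of all genes by 1.23 on the log2 scale within the desisobutyryl ciclesonide libraries.

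**Figure D4:**
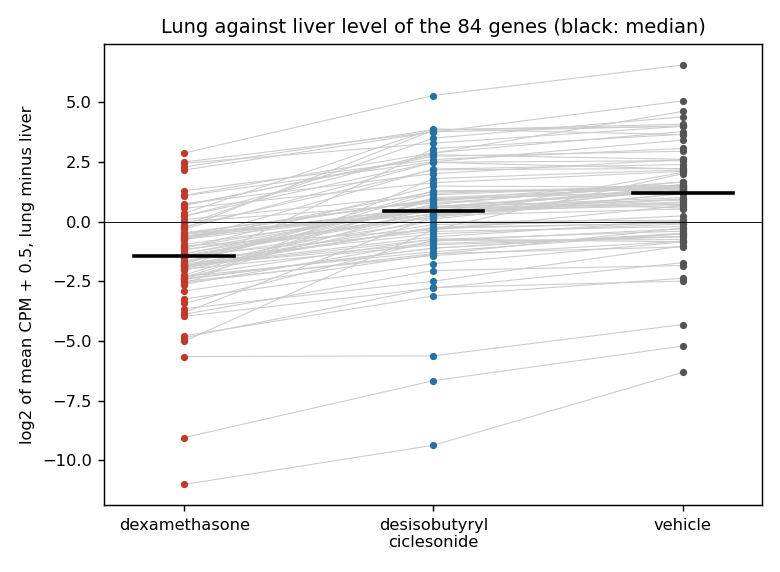
Log2 difference in mean CPM (plus 0.5, on library totals) between lung and liver for each of the 84 genes, joined by a line across the 3 treatments, with black bars at the medians of -1.44 with dexamethasone, 0.45 with desisobutyryl ciclesonide and 1.21 with vehicle. Points above 0 are higher in lung, and TMM scaling shifts all genes toward liver, so that the side of 0 depends on the scaling. The rule by itself places every gene lower with dexamethasone than with vehicle.

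The comparison of lung with liver in the desisobutyryl ciclesonide pups is the one comparison that shares no library with the choice of the genes. All 84 genes passed the filter on low counts there. With edgeR's quasi-likelihood test and Benjamini-Hochberg adjustment over 15043 genes, 22 of the 84 were higher in lung (26.2%, against 40.4% of all genes tested) and 46 were higher in liver (54.8%, against 36.3%), and 16 did not pass the threshold of 0.05. Among the tested genes with the level that the rule required in both tissues, 31.2% were higher in lung and 44.8% higher in liver. Only 1 of the low-scoring lung libraries, desisobutyryl ciclesonide replicate 4, is in this comparison. Without it, 22 of the 84 were higher in lung and 45 in liver. On library totals without TMM the split was 43 higher in lung (51.2%, against 74.4% of all genes tested) and 24 higher in liver (28.6%, against 12.7%). Under both scalings 22 genes were called higher in lung and 24 higher in liver, and 8 were called in opposite directions. The median log2 difference of the 84 genes minus that of all genes tested was -0.84, and minus that of the genes with the level that the rule required it was -0.59. A change of scaling moves all genes alike and leaves such a difference as it is.

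The 2 genes furthest toward lung with desisobutyryl ciclesonide were ENSRNOG00000015036 and ENSRNOG00000007905. ENSRNOG00000015036 had 306, 232, 296 and 361 CPM in desisobutyryl ciclesonide lungs against 10.4, 4.72, 4.09 and 9.39 CPM in desisobutyryl ciclesonide livers, a log2 difference of 4.14 (SE 0.32, edgeR adjusted p = 2.18e-06). ENSRNOG00000007905 had 7.29, 7.89, 12.01 and 12.1 CPM in desisobutyryl ciclesonide lungs against 0.348, 0.230, 0.117 and 0.954 CPM in the livers, a log2 difference of 3.21 (SE 0.51, edgeR adjusted p = 0.000240). Lungs and livers were fully separate for both genes. The dexamethasone livers of ENSRNOG00000015036 had 75.3, 5.08, 25.1 and 21.5 CPM and its vehicle livers 2.15, 3.47, 3.45 and 5.46 CPM, so that dexamethasone replicate 2 lay within the vehicle range. ENSRNOG00000007905 averaged 10.2 ± 4.17 CPM with dexamethasone and 0.231 ± 0.173 CPM with vehicle in liver (SD, n = 4 each), without overlap. The vehicle mean of ENSRNOG00000007905 rests on 16 counts over 4 livers, where the dexamethasone mean rests on 768, and its liver log2 fold of 3.87 was the highest of the set.

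Furthest toward liver were ENSRNOG00000028616 and ENSRNOG00000008837. For ENSRNOG00000028616 the desisobutyryl ciclesonide livers had 2184, 2641, 3178 and 3209 CPM, with lung levels of 1.39 to 8.92 CPM, a log2 difference, lung minus liver, of -10.76 (SE 0.76, edgeR adjusted p = 7.42e-07). ENSRNOG00000008837 had 15.49, 12.4, 10.4 and 9.28 CPM in desisobutyryl ciclesonide lungs against 735, 546, 804 and 2919 CPM in desisobutyryl ciclesonide livers, a difference of -8.00 (SE 0.72, edgeR adjusted p = 5.77e-06). In dexamethasone livers ENSRNOG00000008837 reached 3286, 4038, 4899 and 3509 CPM, against 202, 209, 637 and 844 CPM in vehicle livers. Both genes were far higher in liver than in lung under all 3 treatments, and their lung folds rest on much lower levels than their liver folds.

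Desisobutyryl ciclesonide against vehicle was then examined for the same 84 genes. The vehicle libraries also entered the choice of the genes, and these results are not independent of that choice. The rule favours high vehicle levels in lung and low ones in liver, which by itself pulls these changes down in lung and up in liver.

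In lung, 14 of the 84 genes fell with desisobutyryl ciclesonide (16.7%, against 12.3% of the 16108 genes tested) and 1 rose (1.19%, against 11.8%), by edgeR's quasi-likelihood test with Benjamini-Hochberg adjustment. The share that fell was close to the background, and the share that rose was below it. The estimates of 57 genes were negative (67.9%, against 50.7% of all genes tested), with a median log2 change of -0.26 against -0.01. Without vehicle replicate 3, 10 genes fell, all among the 14, and the median was -0.12. Without the 4 low-scoring lung libraries, 11 fell, 1 rose and 55 estimates were negative, with a median of -0.18.

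The 2 genes first in the order by summed dexamethasone folds had the largest called decreases with desisobutyryl ciclesonide in lung. Both measures use the same vehicle lungs. ENSRNOG00000008986, whose library values are given above, averaged 7.05 ± 1.25 CPM in desisobutyryl ciclesonide lungs and 27.1 ± 3.00 CPM in vehicle lungs (SD, n = 4 each), a log2 change of -1.85 (SE 0.19, edgeR adjusted p = 7.16e-05). ENSRNOG00000013598 averaged 7.90 ± 2.87 CPM with desisobutyryl ciclesonide and 27.4 ± 1.83 CPM with vehicle, a log2 change of -1.70 (SE 0.23, edgeR adjusted p = 0.000334). The one gene that rose was ENSRNOG00000060179, with 635, 573, 555 and 511 CPM in desisobutyryl ciclesonide lungs against 427, 435, 448 and 483 CPM in vehicle lungs, a log2 change of 0.43 (SE 0.10, edgeR adjusted p = 0.00950). Its dexamethasone lungs had 265, 206, 271 and 205 CPM, so that all 4 lay below and all 4 desisobutyryl ciclesonide lungs above the vehicle lungs.

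In liver, 5 of the 84 genes rose with desisobutyryl ciclesonide (5.95%, against 2.09% of the 13734 genes tested) and none fell (against 2.43%) by edgeR. DESeq2 and limma-voom also called none lower, and 1 gene was lower at an unadjusted edgeR p under 0.05. DESeq2 called 10 genes higher (11.9%, against 4.36% of all genes tested) and limma-voom 4 (4.76%, against 2.05%). The estimates of 66 genes were positive (78.6%, against 48.9% of all genes tested), with a median log2 change of 0.21 against -0.01. The median was 0.13, with 54 positive, without desisobutyryl ciclesonide replicate 4, and 0.32, with 69 positive, without vehicle replicate 3. Leaving out single libraries gave 3 to 6 called genes, with 3 when desisobutyryl ciclesonide replicate 2 or 4 or vehicle replicate 1, 2 or 3 was left out.

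ENSRNOG00000059900 had the largest called increase in liver, with 91.1, 106, 54.2 and 75.5 CPM in desisobutyryl ciclesonide livers against 31.7, 23.7, 25.5 and 27.3 CPM in vehicle livers. The groups did not overlap, and the log2 change was 1.63 (SE 0.16, edgeR adjusted p = 4.31e-05). Dexamethasone livers had 111, 88.8, 120 and 128 CPM. In lung the same gene had 77.6, 38.9, 45.0 and 35.9 CPM with dexamethasone, 118, 98.3, 88.5 and 62.9 CPM with desisobutyryl ciclesonide, and 92.0, 66.9, 60.9 and 78.7 CPM with vehicle, with overlap between all 3 lung groups.

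The second, ENSRNOG00000028616, had 2184, 2641, 3178 and 3209 CPM in desisobutyryl ciclesonide livers and 976, 849, 921 and 1941 CPM in vehicle livers. The lowest desisobutyryl ciclesonide liver exceeded the highest vehicle liver, and the log2 change was 1.32 (SE 0.32, edgeR adjusted p = 0.0329). This call was lost in 6 of 14 alternatives, each of which left out 1 library, with edgeR adjusted p of 0.0559 to 0.105 in those. Dexamethasone livers had 2319.8, 4882, 2389.6 and 3542 CPM.

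**Figure D5:**
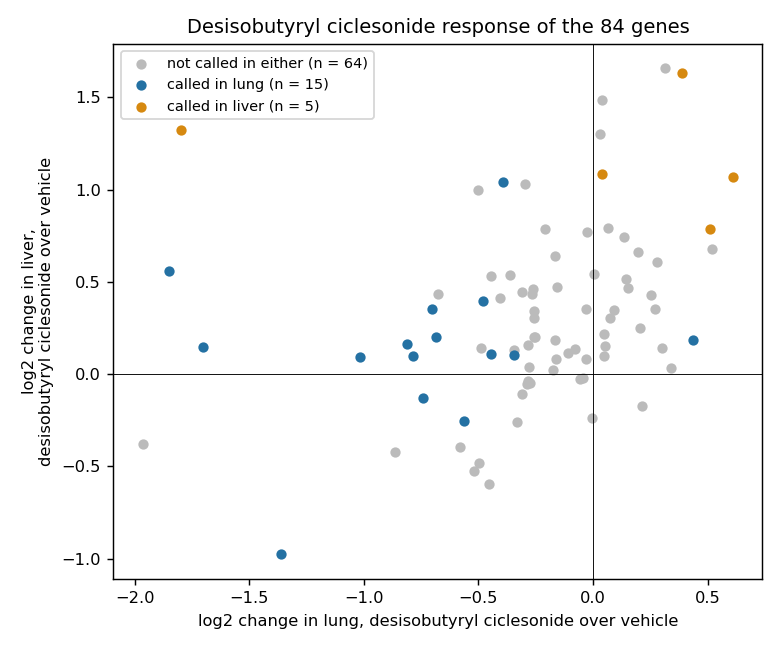
Log2 change with desisobutyryl ciclesonide over vehicle (edgeR estimates) in lung (horizontal) and in liver (vertical) for the 84 genes, coloured by whether the change passed an adjusted p of 0.05. The 15 genes called in lung and the 5 called in liver are different genes, and 64 were called in neither tissue.

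No gene was called both lower in lung and higher in liver with desisobutyryl ciclesonide, against 4 of the 13245 genes tested in both tissues. Of the 84, 64 were called in neither tissue (76.2%, against 72.3%). By the sign of the estimates, 40 genes were lower in lung and higher in liver (47.6%, against 18.9%) and 1 was higher in lung and lower in liver (1.19%, against 17.5%). The estimates of 26 were higher in both tissues (30.95%, against 29.96%) and those of 17 lower in both (20.2%, against 33.7%). The difference between the tissue responses was tested directly over the 24 libraries, as the log2 change in lung minus that in liver. Of the 84 genes, 6 had a lower response in lung than in liver (7.14%, against 2.00% of the 13245 genes tested) and none a higher one (against 2.31%) by edgeR. None had a higher one at an unadjusted edgeR p under 0.05, by DESeq2 or by limma-voom. At an unadjusted edgeR p under 0.05, 28 had a lower response in lung (33.3%, against 8.98% of all genes tested). The estimate was negative for 77 genes (91.7%, against 51.3% of all genes tested), with a median of -0.45 against -0.01, and for 70 genes, with a median of -0.35, without the 4 low-scoring lung libraries. This comparison also shares the vehicle libraries of both tissues with the choice of the genes, which by itself favours a lower response in lung.

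Of the 6 genes, 3 were also called in lung alone, 2 in liver alone and 1 in neither. ENSRNOG00000008986 had the largest difference among the 2 named, with a log2 change in lung minus that in liver of -2.41 (SE 0.34, edgeR adjusted p = 0.000219). ENSRNOG00000059900 had a difference of -1.24 (SE 0.30, edgeR adjusted p = 0.0177), with both tissue estimates positive, 0.39 in lung and 1.63 in liver. Its adjusted p was 0.0529 without lung desisobutyryl ciclesonide replicate 4 and 0.0552 without lung vehicle replicate 1 (edgeR). The count of 6 came down to 3 when either of these libraries was left out and to 2 without the 4 low-scoring lung libraries.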

How the data were processed

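The authors deposited, for each of the 24 libraries, whole-number read counts per Ensembl gene identifier. Per the submitters' processing notes, cutadapt, HISAT2 and HTSeq were used with the mRatBN7.2 build; their versions and the strand setting are not given in the sources used here. Per the labels' protocols, libraries were directional and poly(A)-enriched. The 5 summary rows of each file (16.8% to 31.8% of all counts) were left out of library sizes. The 84 genes and all lists were chosen with earlier results of these data known. CPM was computed on gene totals. Tests used edgeR 4.0.16 (TMM, filterByExpr, robust quasi-likelihood F-test) in R 4.3.3 with Benjamini-Hochberg adjustment over all genes tested; the standard error of a log2 change was its size divided by the square root of F. The fit for 1 tissue used its 12 libraries, that for the difference of responses all 24, and that for lung against liver the 8 desisobutyryl ciclesonide libraries. DESeq2 1.42.0 and limma 3.58.1 (voom) were alternatives, and the scripts were tested on simulated data. Genes were named by rule: with no symbols, the first 2 by the summed size of both dexamethasone log2 folds, and the 2 largest in each direction of each test. The 36 pairs of replicates within groups differed by more than counting noise (chi-square per degree of freedom at least 11.0). Deviations from the group mean correlated between lung and liver libraries of one treatment and number, over 12000 genes with 1 CPM or more in each tissue (Pearson r = 0.131 to 0.324, highest with the own number in 12 of 12), and the numbers were taken to pair tissues of a pup. That gene filter was chosen after a first check over 14578 genes averaging 1 CPM over all libraries, in which the lowest r was 0.09999, just under the 0.1 asked for. Gene lists, cell type markers and promoter motifs needed gene symbols and are not reported here.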

Additional observations from a re-analysis of the deposited data

Results flagged for a closer look

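For the 9 named genes and the summed level of the 84, over the 6 groups, 1 library lay far from the other 3 by Dixon's ratio in 4 of 60 cases, and 28 of 504 groups (5.56%) did over all 84 genes; chance alone flags about 1 group in 20. ENSRNOG00000028616 stood at 51.7 CPM in lung vehicle replicate 3, where the other vehicle lungs had 0.991 to 2.69 CPM. ENSRNOG00000018505 stood at 99.8 CPM in the same library, where the others had 2.64 to 3.52 CPM. ENSRNOG00000008837 had 2919 CPM in liver desisobutyryl ciclesonide replicate 4, where the others had 546 to 804 CPM. ENSRNOG00000028616 had 1941 CPM in liver vehicle replicate 4, where the others had 849 to 976 CPM.

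The response to desisobutyryl ciclesonide differed between the tissues for 6 of the 84 genes, all lower in lung than in liver by edgeR's test of the difference. Among them were ENSRNOG00000008986, at -2.41 on the log2 scale, and ENSRNOG00000059900, at -1.24.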

How the results depend on the processing

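Alternative settings left 143 of 157 recomputed counts within 1.5 times their reported value. The rule chose 24 genes at a fold of 2, 127 without lung dexamethasone replicates 3 and 4, 103 on TMM-scaled library sizes (68 of them among the 84), and 71 to 92 when single libraries were left out. With desisobutyryl ciclesonide in lung, the fit of only the 8 libraries compared called 20 genes lower (23.8%, against 16.5% of all genes tested) and 4 higher (4.76%, against 15.9%). Library totals without TMM called 20 lower (23.8%, against 17.9%) and 1 higher (1.19%, against 8.75%). Leaving out single libraries gave 10 to 14 lower and 1 higher. In liver, DESeq2 called 10 higher, and leaving out single libraries gave 3 to 6 higher and 0 lower. The difference of responses was called lower for 3 to 7 genes and higher for 0 when single libraries were left out, and lower for 2 without the 4 lung libraries lowest on the second component, a setting chosen after seeing the data. Between the tissues of desisobutyryl ciclesonide pups, library totals without TMM gave 43 genes higher in lung and 24 higher in liver, and leaving out single libraries gave 21 to 22 and 44 to 47. The causes of these shifts were not tested.

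With the replicate number as a block, 14 genes fell and 1 rose in lung and 5 rose and 0 fell in liver, where the numbers only name the libraries (r = -0.0847 to 0.177 in lung and -0.0348 to 0.167 in liver, own number highest in 2 of 4 and 1 of 4). With the pup as a block, 7 genes had a lower and 0 a higher response in lung, and 22 were higher in lung and 45 in liver. The pairing changed no call of a named gene.

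Among values of named genes, 257 of 269 were counted as unchanged. For tests this meant the same direction and the same side of the adjusted p threshold. For dexamethasone log2 folds it meant the same direction and a move smaller than the SD between libraries. The fold threshold of the rule was not part of this count. The liver log2 fold of ENSRNOG00000013598 counted as unchanged at 0.23 without dexamethasone replicate 2, where that SD was 1.35. The lung dexamethasone log2 fold of ENSRNOG00000018505 was -2.09 to 1.36 when single libraries were left out and reversed only without lung vehicle replicate 3. Depth limits the fold of ENSRNOG00000007905 in liver, which rests on 16 vehicle counts.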
